A study of Mus musculus with 16 samples.

Results

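Neurotrophins and their receptors were followed in RNA sequenced from mouse spleen, as 7 genes picked by symbol from a table of 54838: the ligands Bdnf, Ntf3 and Ntf5 (neurotrophin-4), the receptor tyrosine kinases Ntrk2 (TrkB) and Ntrk3 (TrkC), the p75 receptor Ngfr, and Sort1 (sortilin). All 7 symbols were found. The 16 samples came from C57BL/6 spleen and formed a size-selected and a whole spleen group of 8 each. For the size-selected group the labels describe minced and enzyme-digested spleens, from which red blood cells were removed by lysis before straining, after which the cells held back by the strainer were lysed, and they name the source as spleen glia. The same protocol is attached to the whole spleen samples, so their own preparation cannot be read from the labels, which also give no age, genetic change or drug for either group. Each of 8 numbers (407, 408, 427, 435, 436, 445, 447 and 460) occurs once in each group, 4 labelled male and 4 female. The labels do not say that a number is 1 animal, so the p-values measure only the spread between these samples. Estimated counts per library totalled 13119991 to 19944440 in the size-selected group and 12153769 to 16282453 in whole spleen.

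Neurotrophins are secreted growth factors that keep sympathetic and sensory neurons alive and shape their axons in target organs. They are made as longer precursors that proteases cut to the mature form. Each mature factor has a preferred Trk receptor: BDNF and neurotrophin-4 bind TrkB, and neurotrophin-3 binds TrkC and, less tightly, TrkB. All of them bind p75, and the precursors bind p75 together with sortilin. TrkB also exists in a truncated form without the kinase domain, which is known from astrocytes. The spleen is supplied by sympathetic fibres that run along its arteries, and Schwann cells of peripheral nerves are a known source of neurotrophins and a known site of p75.

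The size-selected samples carried markers of glia together with markers of several other cells. Of 13 glial genes, 11 passed a filter on low counts, and each of these was called higher in the size-selected samples. The summed level of the 13 ran from 103 to 766 CPM (the count scaled to the size of its library) in the size-selected samples and from 7.97 to 25.8 CPM in whole spleen. Sox10, a defining transcription factor of peripheral glia, was under the filter, with 0.526 to 6.58 CPM in the size-selected samples and 0 in 6 of 8 whole spleen samples. All tested markers of fibroblasts (7), smooth muscle (5), endothelium (6), mesothelium (5), follicular dendritic and reticular cells (7) and megakaryocytes (5) were also called higher. Of 5 macrophage markers 3 were called higher and none lower, with sums of 2748 to 6170 CPM against 1167 to 2283 CPM in whole spleen. Called lower were 5 of 5 B cell, 4 of 5 T cell, 4 of 5 neutrophil and 1 of 5 erythroid markers. Of all genes tested, 37.5% were called higher and 30.4% lower. The fibroblast sum ran from 1061 to 3664 CPM in the size-selected samples and from 5.02 to 57.6 CPM in whole spleen. Of 8 sympathetic neuron genes only Prph and Stmn2 passed the filter, both called higher, and Th, the defining enzyme of noradrenaline synthesis, was at 0 in all 16 samples. In bulk RNA, fewer cells of a type and less RNA per cell cannot be told apart, and the part of each cell type in the values below was not tested. Of 10 genes that respond to tissue dissociation, 8 were called higher and 1 lower in the size-selected group, and the part of this response was not tested either.

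Ntrk2 and Ntf3 were near 0 in whole spleen and plainly present in every size-selected sample. Sort1 and Ngfr were present in both groups and higher in the size-selected one. Ntrk3 had overlapping levels in the groups. Of the 5 genes that passed the filter, Ntf3, Ntrk2, Ngfr and Sort1 were called higher at an edgeR adjusted p under 0.05, 4 of 5, where 37.5% of all 14510 genes tested were called higher and 30.4% lower. None was called lower. On restored counts the same 4 were called higher, where 37.6% of genes were called higher and 30.4% lower. The share of all genes called higher is large, so a call alone sets these genes little apart. Ntf3 and Ntrk2, like any gene near 0 in whole spleen, passed the filter through their size-selected counts alone, so that counts over tested genes, here and in the lists below, are descriptions. The median log2 fold change of all genes tested was 0.05, and 0.18 when library totals replaced the usual scaling.

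Counts of 3898 genes in the size-selected columns were deposited after multiplication by constants particular to each column, from 0.659 to 0.964, which no label mentions and which were found from the values. Bdnf and Ngfr carry 1 such constant, Ntf3 and Ntrk3 carry 2, and Ntrk2, Sort1 and Ntf5 carry none. Values are given as deposited, with restored values (divided by the constants) beside them where the difference matters.

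**Figure D1:**
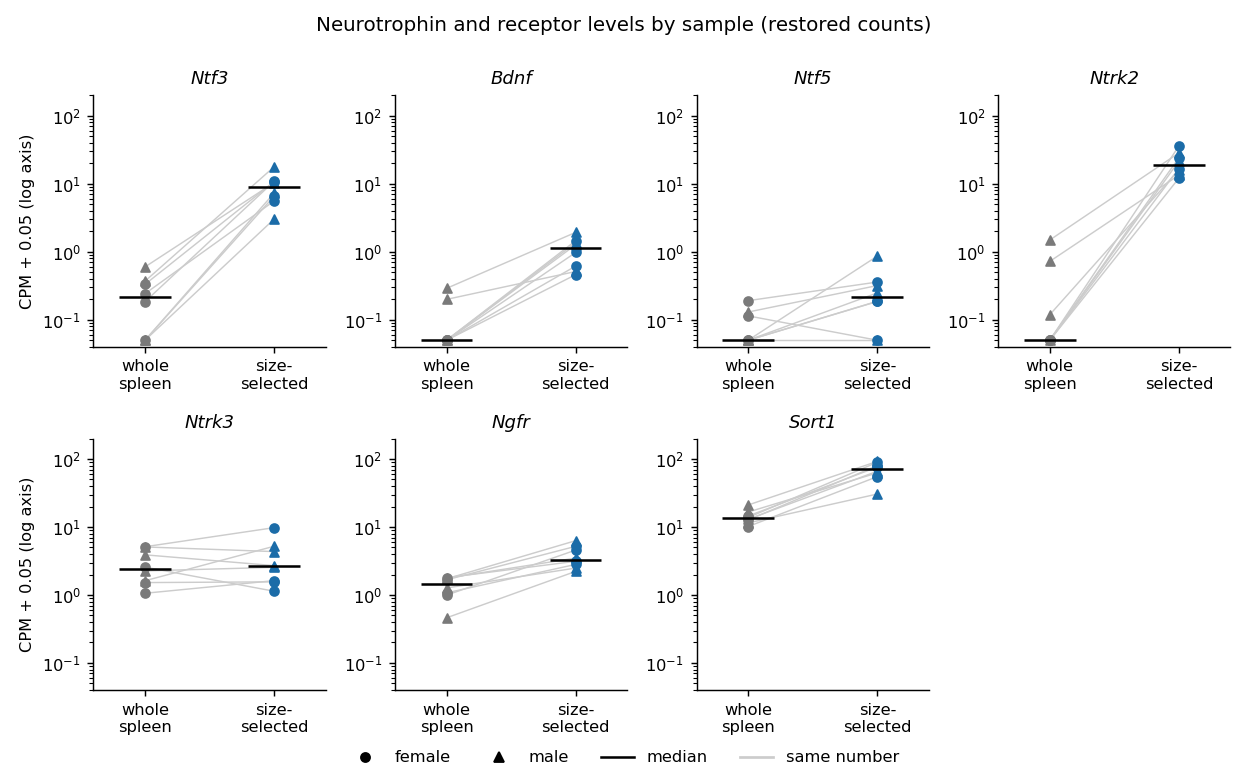
Level of each gene in whole spleen (grey, left) and size-selected samples (blue, right), as CPM plus 0.05 on a log axis, from restored counts. Each point is 1 sample, circles are female and triangles male, grey lines join samples of the same number and black bars are medians of 8. Ntf3, Bdnf, Ntrk2, Ngfr and Sort1 rise along all 8 lines, while the lines of Ntf5 and Ntrk3 cross.

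Among the ligands, Ntf3 (neurotrophin-3, chromosome 6, 126101412 to 126166910, minus strand) was the most abundant of the 3 per exon length. In the size-selected samples it had a lowest value of 2.35, a median of 6.20 and a highest value of 12.2 CPM. In whole spleen the lowest was 0, the median 0.167 and the highest 0.560 CPM, with 0 counts in 3 of 8 samples and 21 counts in all. The groups did not overlap, a property that 23.3% of all genes tested had in this direction, and Ntf3 was higher in 8 of 8 pairs, as were 31.3% of all genes tested. Its log2 fold change was 4.99 (SE 0.53, edgeR adjusted p = 1.43e-07), and 5.55 on restored counts. The 8 restored size-selected counts ran from 45 to 264.

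Bdnf (brain-derived neurotrophic factor, chromosome 2, 109674700 to 109727007, plus strand) was a low transcript in both groups and fell under the filter. Its size-selected counts, restored, ran from 6 to 31 with a median of 19.5, which is 0.292 to 1.43 CPM as deposited with a median of 0.830. In whole spleen 6 of 8 samples had no count, and the other two, both male, brought the total to 5. All size-selected samples lay above all whole spleen samples. Of the genes that passed the filter, 23.3% had this property, but Bdnf is not among them, and no share without the filter is given. In a fit without the filter, where 25.3% of 28235 genes were called higher, the log2 fold change of Bdnf was 3.84 (SE 0.73, edgeR adjusted p = 0.000147), and 4.24 on restored counts. An antisense gene, Gm45346, shares 896 exon bases with Bdnf. It had 0 counts in every sample, but whether reads were counted by strand is not given in the sources used here, so reads of the pair could not be separated.

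Ntf5 (chromosome 7, 45413695 to 45417179, plus strand) was at the edge of detection. It had 31 counts over the 8 size-selected samples, 13 of them in 407, and 4 counts over the 8 whole spleen samples. Size-selected values ran from 0 to 0.856 CPM with a median of 0.177, and whole spleen values from 0 to 0.144 CPM with a median of 0. The groups overlapped, with 2 size-selected and 5 whole spleen samples at 0, and Ntf5 was higher in 6 of 8 pairs. Without the filter its log2 fold change was 2.46 (SE 0.90, edgeR adjusted p = 0.0311). With the number as a block this was 2.29 and the call was lost (edgeR adjusted p = 0.117), where 22.8% of genes were called higher. At this depth a difference in Ntf5 was not resolved.

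Ntrk2, the receptor of BDNF and neurotrophin-4 (chromosome 13, 58806569 to 59133970, plus strand), had the highest fold change of the 7 genes. Size-selected samples held 191 to 695 counts, that is 12.7 CPM at the lowest, 20.2 at the median and 37.8 at the highest. Whole spleen held 28 counts in all: 18 in 427, 9 in 408, 1 in 435 and none in the other five samples. The highest whole spleen value, 1.47 CPM, was far below the lowest size-selected value, so the groups did not overlap. The log2 fold change was 6.39 (SE 0.65, edgeR adjusted p = 7.71e-08). Counts are per gene, so full-length and truncated TrkB could not be told apart. Leaving out whole spleen sample 427 alone raised it to 7.66. In that sample 9 of the 14 marker sums were the highest of the 8 whole spleen samples. Those of glia, fibroblast, smooth muscle and endothelium were 25.8, 57.6, 69.2 and 178 CPM against 19.9, 22.7, 43.4 and 111 CPM at most in the others, macrophage 2283 against 1555 and erythroid 323 against 240, and the others were mesothelial, follicular dendritic and reticular, and sympathetic neuron sums. Their part in its Ntrk2 level was not tested.

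Ntrk3, the receptor of neurotrophin-3 (chromosome 7, 78175959 to 78738012, minus strand), was not called in either direction. Deposited values ran from 0.721 to 6.64 CPM with a median of 1.91 in the size-selected samples, and from 1.03 to 5.18 CPM with a median of 2.41 in whole spleen. These ranges overlapped almost fully, and 1 size-selected sample, 436, lay above all whole spleen samples, against 2 on restored counts. The log2 fold change was -0.19 (SE 0.45, edgeR adjusted p = 0.716). On restored counts it was 0.33 (SE 0.44, edgeR adjusted p = 0.521), with 5 of 8 pairs higher against 2 of 8 as deposited, so the sign of the difference depends on the constants. Leaving out size-selected sample 436 gave -0.58. Missing the threshold does not show that the levels are the same.

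The pair of Trk receptors therefore changed rank. Ntrk2 was above Ntrk3 per kilobase of exon in 8 of 8 size-selected samples and in 0 of 8 whole spleen samples. The same counts were found when the median length of the coding transcripts replaced the merged exons.

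Ngfr, the p75 receptor that binds every neurotrophin (chromosome 11, 95568818 to 95587735, minus strand), had a modest difference. The size-selected values were 1.85 CPM at the lowest, 2.77 at the median and 5.51 at the highest, and the whole spleen values 0.420, 1.45 and 1.79 CPM. The lowest size-selected sample was just above the highest whole spleen sample, and all 8 pairs were higher. The log2 fold change was 1.28 (SE 0.30, edgeR adjusted p = 0.00101), and 1.52 on restored counts.

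Sort1, the sortilin that carries precursors and pairs with p75 (chromosome 3, 108284082 to 108361511, plus strand), was the member with the most counts. It had 31.9 CPM at the lowest, 75.01 at the median and 98.2 at the highest in the size-selected samples, against 10.3, 13.6 and 21.5 CPM in whole spleen. The groups were apart in all samples and all 8 pairs were higher. The log2 fold change was 2.34 (SE 0.20, edgeR adjusted p = 8.90e-09). An antisense gene, Gm12523, shares 338 exon bases with Sort1 and had 0 counts.

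**Figure D2:**
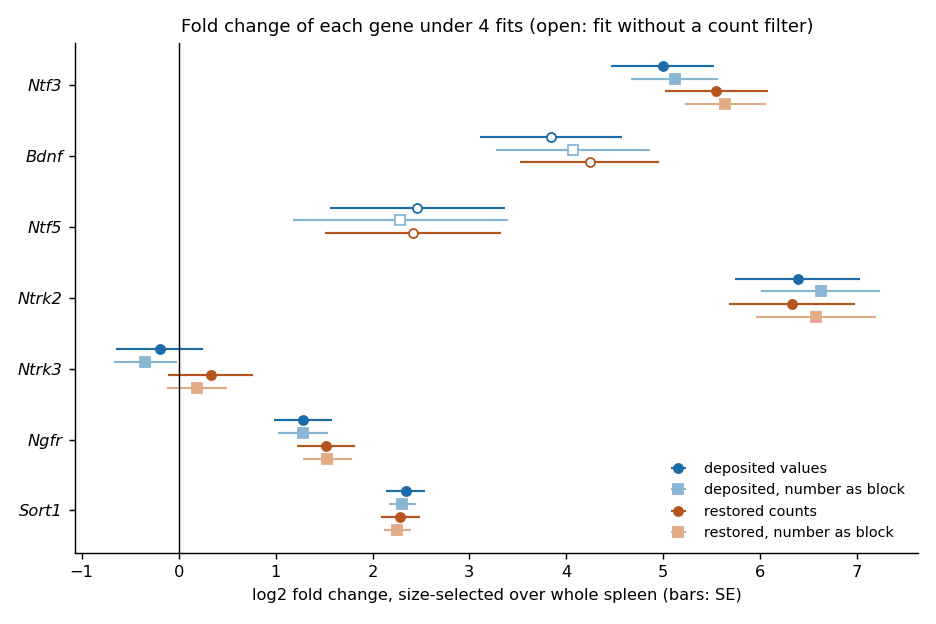
Log2 fold change of each gene, size-selected over whole spleen, with its standard error as a bar, under up to 4 fits: deposited values, deposited values with the number as a block, restored counts, and restored counts with the block. Open symbols are fits without the count filter, of which Bdnf and Ntf5 have 3 each and none with restored counts and the block, and Ntrk3 is the gene whose values lie on both sides of 0 (-0.19 as deposited and 0.33 restored).

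The authors' deposited table of their own comparison is limited to log2 fold changes of 3.5 or more. It lists Ntrk2 at 6.27, Ntf3 at 5.17 and Bdnf at 4.11, and does not list Ntf5, Ntrk3, Ngfr or Sort1. The authors' deposited table gives Ntrk2 as 7.75 against 0.0863 TPM (transcript abundance corrected for length and library size), Ntf3 as 9.98 against 0.144 and Bdnf as 0.34 against 0.0138, size-selected against whole spleen, as 1 value a group.

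The sequence before the start of the gene is shown for the 3 called members that RefSeq's table for GRCm38.p6 covers, Ntrk2 and Ntf3, which were near 0 in whole spleen, and Ngfr, which was not. Each line is the gene's strand, 5′ to 3′, up to the base before the first exon, and capitals mark GGGCGG, the GC box.
Ntrk2, chr13:58806319-58806568, plus strand: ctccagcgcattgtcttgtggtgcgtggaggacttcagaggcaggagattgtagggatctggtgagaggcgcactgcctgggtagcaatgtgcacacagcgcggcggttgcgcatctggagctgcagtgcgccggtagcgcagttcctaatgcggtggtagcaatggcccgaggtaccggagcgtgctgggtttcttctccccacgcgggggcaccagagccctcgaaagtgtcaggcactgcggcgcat
Ntf3, chr6:126166911-126166994, minus strand: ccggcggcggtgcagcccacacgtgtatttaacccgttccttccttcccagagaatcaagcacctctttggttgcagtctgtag
Ngfr, chr11:95587736-95587948, minus strand: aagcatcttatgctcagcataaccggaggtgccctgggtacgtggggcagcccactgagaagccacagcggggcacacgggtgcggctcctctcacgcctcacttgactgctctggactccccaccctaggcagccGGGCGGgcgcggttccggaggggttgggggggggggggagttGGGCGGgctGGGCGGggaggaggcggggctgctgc
The Ngfr stretch (213 bases) holds GGGCGG 3 times, and the Ntrk2 (250 bases) and Ntf3 (84 bases) stretches do not hold it. The Ntf3 stretch is short because 166 exon bases were left out, so the stretches are not alike in length. In the full windows, 250 bases before to 50 after each start, Ntrk2 has no GGGCGG on either strand and both Ntf3 windows have 1. The Ngfr window has 3 forward and 1 reverse. Of 32851 RefSeq windows, 32.7% hold it on 1 strand or the other. The other motifs searched, on both strands, were CCAAT (held by 33.8% of windows), the TATA box as TATAAA (12.4%), the half-site of the cAMP response element as TGACG (17.8%) and a SOX site as AACAAT (9.42%). None of them is in the windows of Ntrk2 or Ngfr, and CCAAT is in 1 of the Ntf3 windows. A match is a description of letters only.

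The enzymes that cut neurotrophin precursors, with their inhibitors, were mostly higher in the size-selected group. Of 12 genes listed, 10 were tested, 9 were called higher and none lower, where 37.5% of all genes tested were called higher and 30.4% lower. The median log2 fold change was 2.39 against 0.05 over all genes tested. Mmp3, a matrix metalloprotease, had 26.0 ± 16.4 CPM among size-selected samples against 0.318 ± 0.440 (SD, n = 8 and 8), with 6.39 as its log2 fold change. Plat, the tissue plasminogen activator, had 57.4 ± 23.0 against 0.838 ± 0.706 CPM (log2 fold change 6.10), and Pcsk5, a proprotein convertase, 49.2 ± 14.8 against 1.08 ± 0.835 CPM (5.50). The broadly expressed convertase Furin was present in both groups and changed less, from 59.4 ± 14.4 in whole spleen to 92.2 ± 8.81 CPM in the size-selected group, a log2 fold change of 0.64. Mmp9 was not called on deposited values (0.15) and was called on restored counts (0.39, edgeR adjusted p = 0.0431). Furin and Mmp9 are named here after their values were seen.

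Partners of p75 and relatives of sortilin went both ways. Of 22 genes listed, 20 were tested, 11 were called higher and 5 lower beside 37.5% and 30.4% of all genes, with a median log2 fold change of 0.46; on restored counts 11 were higher and 3 lower. Nradd, a relative of p75 that lacks its ligand-binding part, had 8.50 ± 2.94 CPM in size-selected samples against 0.642 ± 0.495 (SD, n = 8 and 8), with 3.68 as its log2 fold change. Maged1, an adaptor known as NRAGE that binds p75, had a log2 fold change of 3.38 and Rtn4rl1, a receptor of the Nogo receptor family, 2.92. Bex3, an adaptor that binds the death domain of p75, went from 59.95 ± 8.20 CPM in whole spleen to 31.5 ± 2.90 in the size-selected group, lower in all 8 pairs, a log2 fold change of -0.93. Zfp369, a zinc finger protein that binds p75, had -1.38, and Arhgdia, an inhibitor of small GTPases that binds p75, -0.53. Rhoa itself, which carries 2 of the constants, was called lower on deposited values (-0.38) and not on restored counts (-0.0067, edgeR adjusted p = 0.958), and the sortilin relative Sorl1 moved little, from -0.45 to -0.38, across the threshold (edgeR adjusted p = 0.0534). Sorcs1, another relative of sortilin, had 362 counts over the size-selected samples and none in whole spleen, at least 99.99-fold higher with 3 counts over the whole spleen group as the floor. It did not pass the count filter, and Rhoa, Sorl1 and Sorcs1 are named here after their values were seen.

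Adaptors and effectors behind the Trk receptors, most of them expressed in any cell, were split. Of 37 genes listed, 34 were tested, 13 were called higher, a share near the 37.5% of all genes, and 8 lower beside 30.4% of all genes, with a median log2 fold change of 0.18; on restored counts 14 were higher and 7 lower. Gab1, a docking protein that links receptor kinases to PI3 kinase, had 26.998 ± 9.55 CPM in size-selected samples against 2.68 ± 0.758 (SD, n = 8 and 8), with 3.33 as its log2 fold change. Ptprs, a receptor tyrosine phosphatase that acts on Trk receptors, had 2.06, and the kinase Mapk3 (ERK1) 1.42. Among the genes called lower, Grb2, the adaptor that brings SOS to the membrane, had -0.50, and the kinase Akt2 -0.63, which was -0.26 on restored counts and still called.

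**Figure D3:**
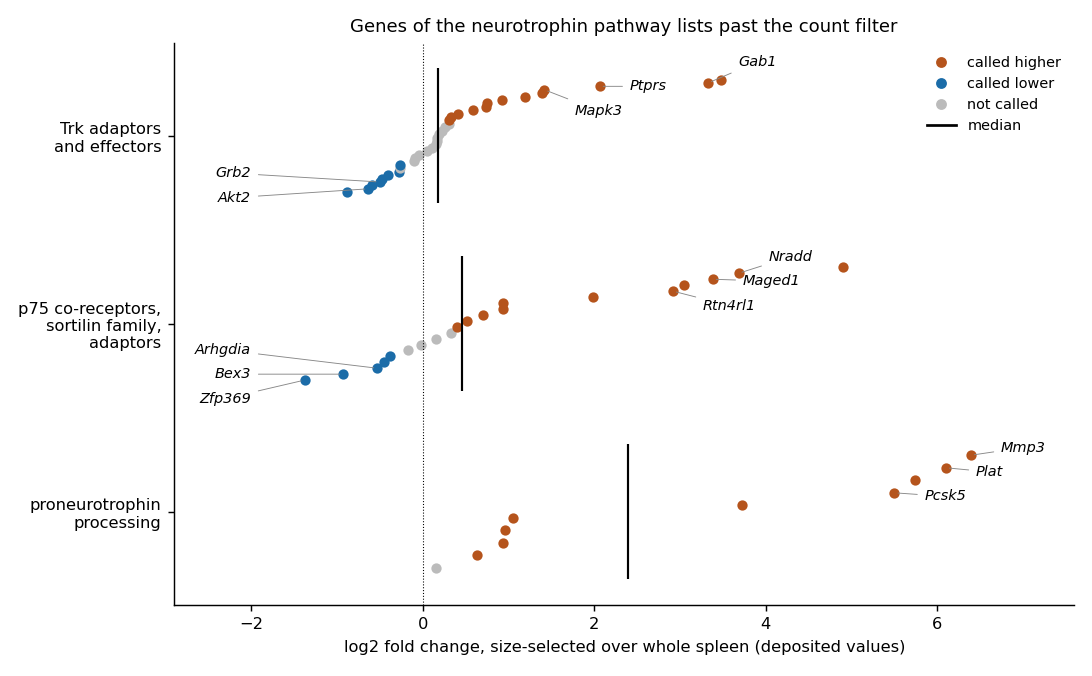
Log2 fold change, size-selected over whole spleen, of each tested gene of the 3 pathway lists on deposited values. Orange points were called higher, blue lower and grey not called, and vertical bars are list medians: 2.39 for precursor processing, 0.46 for p75 partners and sortilin relatives, and 0.18 for Trk adaptors and effectors.

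Among the 8 size-selected samples, the genes did not vary as 1 block. On restored counts, 427 was the highest for Ntf3, Bdnf, Ngfr and Sort1, and 436 for Ntrk2 and Ntrk3. Sample 408 was the lowest for Ntf3 and Sort1. The coefficient of variation was lowest for Sort1 (29.3%), then Ngfr (38.6%), Ntrk2 (38.9%), Ntf3 (50.1%), Bdnf (51.0%), Ntrk3 (80.3%) and Ntf5 (112%), which had very few counts. Ntrk3 in 436 was 2.73 times the mean of the 8 samples and Ntrk2 1.71 times, and 3 of 14 marker sums were highest in that sample: glia at 2.997 times their mean (766 CPM against a median of 186), megakaryocyte and platelet at 1.95 and fibroblast at 1.81. Ntf3 in 427 was 1.97 times its mean, where 5 of the 14 sums were highest: sympathetic neuron at 1.93 times the mean (2 of its 8 markers passed the filter), follicular dendritic and reticular at 1.65, smooth muscle at 1.62, dissociation response at 1.57 and endothelial at 1.44. Fibroblast markers were at 1.60, macrophage at 1.46 and B cell markers at 0.40 times theirs there. Ntf3 in 408 was 0.33 times and Sort1 0.44 times its mean, where 6 of the 14 sums were lowest: mesothelial at 0.24 times the mean, smooth muscle at 0.34, fibroblast at 0.52, endothelial at 0.54, sympathetic neuron at 0.60 and macrophage at 0.68. B cell markers were at 1.51 times theirs there. The part of these cells in the levels was not tested, and the marker sums are of deposited values. The log2 fold changes of Ntf3, Ngfr and Sort1 with each number left out in turn were at least 4.84, 1.19 and 2.29, and that of Ntrk2 at least 6.04, with each call kept.

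**Figure D4:**
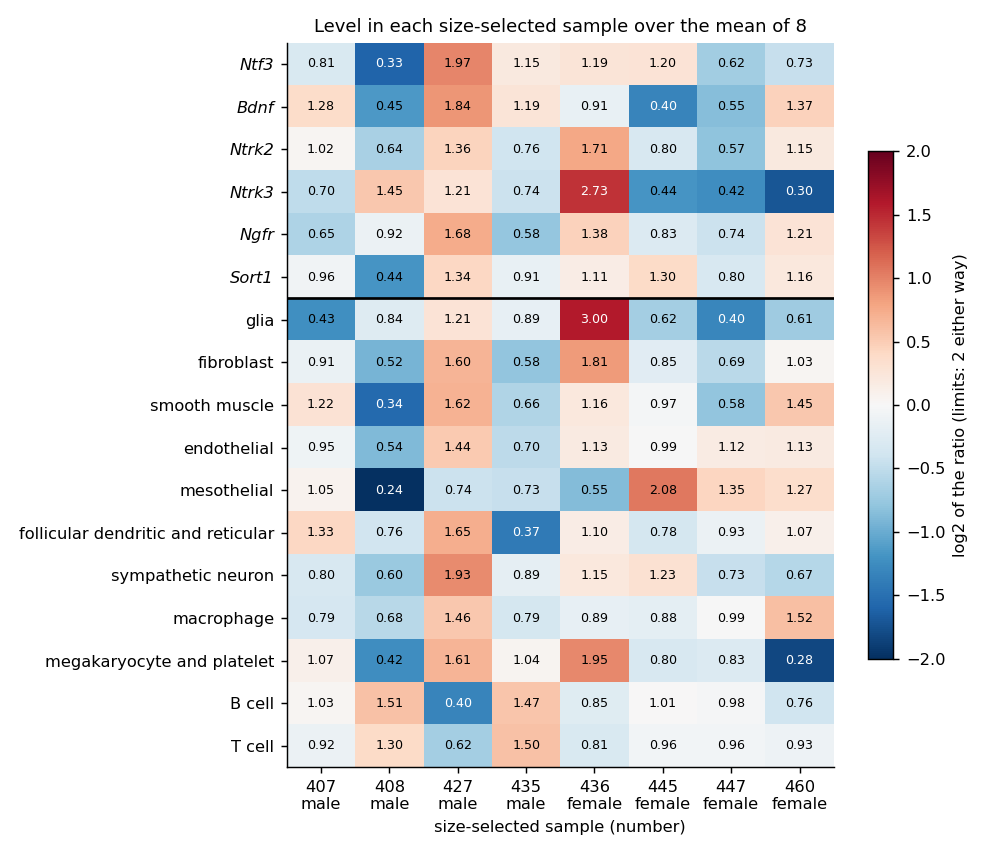
Level of each gene (top, restored CPM) and summed level of the markers of each cell type (bottom, deposited CPM) in each size-selected sample. Each value is divided by the mean of the 8 samples. Colour is the log2 of that ratio and the figure in each cell the ratio, with 436 highest for Ntrk2 (1.71), Ntrk3 (2.73) and the sums of glia (2.997, drawn rounded), megakaryocyte and platelet (1.95) and fibroblast (1.81), and 408 lowest for Ntf3 (0.33) and Sort1 (0.44).

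Levels can be compared between genes only per length. Per kilobase of merged exons and on restored counts, the order in the size-selected samples was Sort1 (9.10 ± 2.67), Ntf3 (5.24 ± 2.62), Ntrk2 (1.09 ± 0.422), Ngfr (1.08 ± 0.417), Bdnf (0.164 ± 0.0839), Ntrk3 (0.118 ± 0.0948) and Ntf5 (0.0877 ± 0.0978), as mean CPM per kilobase (SD, n = 8). Neighbours in that order had overlapping ranges, except Ngfr and Bdnf. Sort1 was above Ntf3 and Ntf3 above Ntrk2 in 8 of 8 samples, while Ntrk2 was above Ngfr in 3 of 8. On deposited values Ntrk2 was above Ngfr in 5 of 8, and the mean of Ntf5 (0.0927) was above that of Ntrk3 (0.0837). In whole spleen Sort1 (1.86) stood above Ngfr (0.376) with no overlap, and the others were at 0.108 (Ntf3), 0.0942 (Ntrk3) and 0.0141 (Ntrk2) or less. The order also depends on which length a gene is given: Ntrk2 and Ntrk3 have 19292 and 30170 bases of merged exons but median coding transcripts of 3049 and 2726 bases. With the latter, Ntrk2 had 6.87 CPM per kilobase in the size-selected samples, beside 6.42 for Ntf3, and Ntrk3 1.31, beside 1.08 for Ngfr. In whole spleen Ntrk3 then had 1.04 (0.370 to 1.86), above Ngfr (0.376) in the mean and overlapping Sort1 (1.48 to 3.09).

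**Figure D5:**
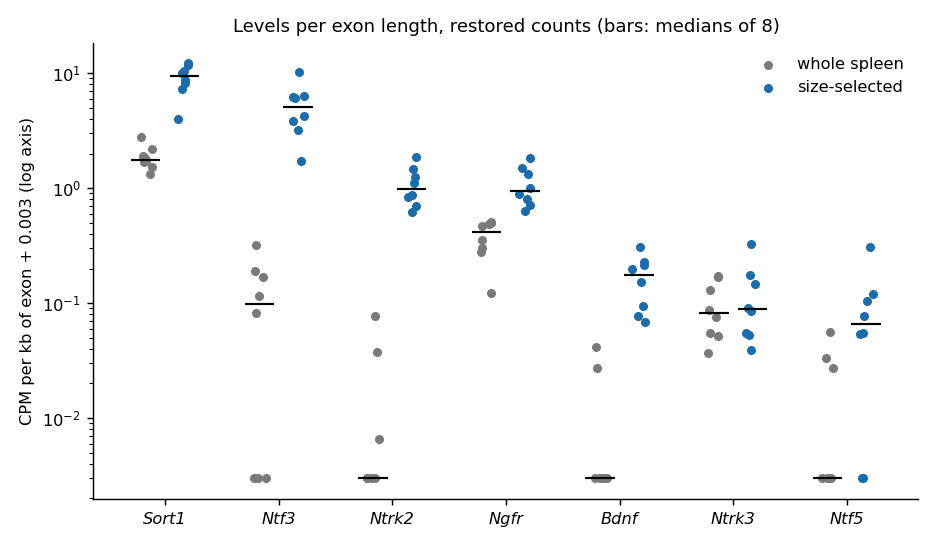
CPM per kilobase of merged exons (plus 0.003, log axis) for each gene from restored counts, in whole spleen (grey) and size-selected samples (blue), 1 point a sample with a bar at the median of 8. Genes stand in the order of their size-selected mean, and the whole spleen points of Ntrk2, Bdnf and Ntf5 lie mostly at the bottom of the axis, at 0 counts.

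The 4 female and the 4 male pairs alike were higher for Ntf3, Ntrk2, Ngfr and Sort1. Without a block for the number, no gene passed the test of whether the difference itself depends on sex (0 of 15760 tested with edgeR, 0%, and 744 at an unadjusted p under 0.05). With the number as a block edgeR called 3, and DESeq2 without it called 3. The count filter of the sex test was set by sex and group together, and Bdnf passed it. Ntrk2 had the smallest unadjusted p of the members, 0.00452, with an interaction of 6.23 (SE 1.83, edgeR adjusted p = 1.00; 5.38 without number 427), a fitted value that rests on a female whole spleen group at 0, and an adjusted p of 0.266 in DESeq2, the lowest over the alternatives. Its size-selected means were 23.5 ± 10.9 CPM in females and 20.9 ± 7.19 in males (SD, n = 4 each). The 4 female whole spleen samples had no count, so that Ntrk2 was at least 464-fold higher in the female size-selected samples with a floor of 3 counts over the group, and 3 of the 4 male ones had counts. Bdnf had an interaction of 3.09 (SE 1.54, edgeR unadjusted p = 0.0659, adjusted p = 1.00), on 5 whole spleen counts. For Ntf3, Ntrk3, Ngfr and Sort1 the interactions were 0.25, 0.13, -0.0062 and 0.55, each smaller than 1.5 times its standard error without the block. With the number as a block, Sort1 had 0.60 (SE 0.22, edgeR unadjusted p = 0.0181, adjusted p = 0.713), and its pair differences were 2.59 ± 0.16 in females and 1.99 ± 0.41 in males on the log2 scale (SD, n = 4 each).

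The genes whose profile over the 16 samples lay nearest to each tested member, by root mean square distance of centred log2 CPM among 12128 genes, were these. Near to Ntrk2 was Id4, an inhibitor of basic helix-loop-helix factors, at 0.57. Nearest to Ntf3 were Cav2, a caveolin, at 0.45 and Nr5a1, the nuclear receptor SF-1, at 0.49. For Sort1 they were Rab3d, a secretory Rab protein, at 0.21 and Selenop, the selenium carrier of plasma, at 0.22, and for Ngfr Gprin3 at 0.29 and Itpkc, an inositol trisphosphate kinase, at 0.31. For Ntrk3 the nearest, Phf11a at 0.61 and the immunoglobulin segment Ighv1-39 at 0.62, were little nearer than the spread of Ntrk3 itself (SD 0.88 over the 16 samples). These distances describe the 16 samples, which share the difference between groups.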

How the data were processed

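RNA from 8 size-selected and 8 whole spleen samples was analysed, grouped and paired by the titles in the labels. The submitters' processing notes name Trim Galore, STAR, RSEM, DESeq and mm10, with no role or version; the annotation and any use of strand are not given in the sources used here. The count table deposited by the authors holds estimated counts per gene. Per the file headers, the authors' deposited comparison holds a base mean signal, log2 fold changes, their standard errors and test score, p-values, and TPM and FPKM per group; FPKM was not used here.

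Estimated counts were rounded to whole numbers and tested with edgeR 4.0.16 in R 4.3.3: filterByExpr with a minimum count of 10, TMM scaling, the quasi-likelihood F test with the group as the only term, and Benjamini-Hochberg adjustment over all genes tested, at 0.05. Sex by group was tested in a second fit of the same kind, except that the count filter was set by sex and group together. That filter passed 15760 genes, Bdnf among them. Standard errors are the fold change over the root of its F statistic. CPM uses TMM-scaled totals. The constants were searched as frequent ratios of small values to whole numbers, column by column. The scripts were tested on simulated counts. All 16 per-sample columns were used. The members and lists were chosen with earlier results of these data known. Named genes are the members, the 3 largest rises and falls of each list (called genes that moved alike in all 8 pairs, mean log2 CPM 1 or more), and the 2 nearest profiles of each tested member; some genes these rules name are not reported here.

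Of the 54838 gene identifiers, 54809 were in GENCODE M21 (GRCm38), the source of coordinates and exon lengths, and 54256 had the same symbol there. RefSeq's promoter table matched 4 of the 7 members; Bdnf has 7 windows there and is not printed. Numbers paired the samples: deviations from group means of same-numbered samples correlated at 0.12 to 0.38 (mean 0.21). Those of different numbers correlated at -0.33 to 0.23 (mean -0.03), so the ranges overlapped. The alternatives were RLE scaling, library totals, minimum counts of 5 and 20, no filter, a block for the number, restored counts, sex as a covariate, leaving out samples, and the tools limma-voom (limma 3.58.1) and DESeq2 1.42.0.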

Additional observations from a re-analysis of the deposited data

Results flagged for a closer look

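Values in groups of 8 samples were screened for a lowest or highest log2 CPM far from the rest, in 30 named genes and both groups. Of 60 groups, 5 had such a value, where chance alone gives about 3, since the screen passes 1 in 20 groups. Among the members, Ngfr in whole spleen 435 was low at -0.85, with the other seven at 0.13 or above, and Sort1 in size-selected 408 was low at 5.00, with the others at 5.86 or above. Itpkc was low in the same whole spleen sample, 435, at 3.27, but it was chosen for a profile like that of Ngfr over these samples, so this flag and its place among the 5 are not independent of the first. Whole spleen 427 was high for Rtn4rl1 at 4.01. Akt2 was low in size-selected 427 at 5.91.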

How the results depend on the processing

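The calls of Ntf3, Ntrk2, Ngfr and Sort1 kept their direction and side of the threshold under 22 alternatives each, with log2 fold changes of 4.84 to 5.64, 6.04 to 8.87, 1.19 to 1.53 and 2.26 to 2.46. Ntrk3 turned to 0.33 on restored counts and 0.19 on restored counts with the number as a replicate block, never called; the division by the constants is the change made there. With the replicate block and no filter, Ntf5 was no longer called (2.29). The replicate block changed no other call of a member, and Ighv1-39, one of the nearest profiles, gained one (-0.60; -0.62 with DESeq2, -0.66 on restored counts). Genes called for the interaction of sex and group numbered 3 with DESeq2 and 3 with the replicate block against 0, and 0 to 1 with a number left out, the 1 without 445. Interactions near 0 changed sign with none called: Ngfr to 0.012 with DESeq2, 0.011 with RLE scaling, 0.033 on restored counts and between -0.22 and 0.26 with a number left out, Ntrk3 to -0.27 with the replicate block and between -0.65 and 0.62, and Ntf3 between -0.75 and 0.55; the cause was not tested. Length per gene, an alternative chosen after seeing the data, moved the level per kilobase of Ntrk2, Ntrk3, Bdnf and Ntf5 to 6.87, 1.31, 0.262 and 0.158, the last by less than its SD. Depth limits Bdnf and Ntf5 in whole spleen, with 5 and 4 counts over 8 samples. The floors given above cover counting error only.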
